A study of Homo sapiens with 16 samples.

Results

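Tubulin isotypes are the closely related genes that encode the alpha and beta subunits of microtubules. The set was taken by gene symbol and held 10 genes: the alpha-tubulin genes TUBA1A, TUBA1B, TUBA1C and TUBA4A, and the beta-tubulin genes TUBB, TUBB2A, TUBB2B, TUBB3, TUBB4B and TUBB6. They filled 11 of the 57820 rows of the deposited table, because TUBB3 is listed under 2 Ensembl identifiers. Of the 10 genes, 8 had a mean normalised read count of 20 or more over all libraries and could be tested. TUBB2B and TUBB3 lay below that level in every line.

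The study sequenced RNA of 3 human leukaemia lines of T-cell origin (T-ALL), CUTLL1, KOPTK1 (also spelled Koptk1) and HPB-ALL (also spelled HpbALL), after the long non-coding RNA (lncRNA) lnrCXCR4 had been targeted. One approach was a lentivirus that carried CRISPR components with a guide, and the other was an antisense oligonucleotide (ASO) added to the medium to 1 uM. The 16 libraries came from 5 experiments. With guides, CUTLL1 had 2 targeted libraries and 1 control, KOPTK1 had 2 targeted libraries and 1 control, and HPB-ALL had 2 of each. With ASOs, CUTLL1 and KOPTK1 each had 2 targeted libraries and 1 control. Every control was itself treated, with a virus carrying a non-targeting guide or with a scrambled ASO, so no library comes from untreated cells. The titles number the targeted libraries as guide or ASO 1 and 2 and the descriptions call them replicates, and nothing in the labels says that they came from separate cultures. P-values thus reflect how far these particular libraries scatter, and that scatter may be technical. How long the cells were treated is not stated in the labels.

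Libraries held 34547469 to 72178929 reads over the listed genes. No row carried the name of the lncRNA, which leaves its knockdown not analysed here and the targeted labels unchecked. The 9 T-lineage marker genes were all detected, and their summed level was 72580 to 95260 normalised reads in targeted libraries, against 162400 to 228900 in controls. That sum follows its most abundant genes and does not give the direction of each marker. Over all libraries TRAC ran from 13.81 to 56800, and CD3G from 8996 to 14750. Mean chi-square per gene between libraries of one group was 2.485 to 6.75 over 5 pairs, where 1 is counting noise alone. It was 167.8 to 304.8 between targeted and control libraries of one line. These are bulk samples, so fewer cells of a kind and less RNA per cell cannot be told apart.

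Microtubules are hollow polymers of alpha- and beta-tubulin dimers that form the mitotic spindle, the tracks for intracellular transport and, in T cells, the array that turns toward the immune synapse. Vertebrates carry several genes for each subunit, whose proteins differ mostly in the acidic carboxy-terminal tail. That tail is where most tubulin-modifying enzymes act and where many motors and microtubule-associated proteins bind. TUBB and TUBA1B are common isotypes of many dividing cells, TUBB4B is widespread and abundant in ciliated cells, and TUBA1A, TUBB2A, TUBB2B and TUBB3 are best known from neurons. Beta-tubulin is also the target of vincristine, a drug of standard leukaemia treatment. Cells adjust tubulin mRNA to the pool of free dimers: excess dimers lead, through TTC5, SCAPER and the CCR4-NOT deadenylase, to decay of tubulin mRNA while it is being translated.

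TUBB4B, TUBB2A and TUBA1A were higher in all 10 targeted libraries than in the controls of their own experiment, by 2.15-fold to 3.85-fold in the comparison over all libraries, and TUBA1B was higher by 1.16-fold. TUBB, the most abundant isotype, and TUBA1C did not pass the test there. TUBA4A was lower, in the 2 lines that expressed it above trace level. TUBB6 was expressed in CUTLL1 and near 0 elsewhere. Fold changes are from limma on log2(normalised read count + 1) with Benjamini-Hochberg adjustment over all genes tested, and the threshold was an adjusted p of 0.05. Over all 16 libraries, 4 of the 8 tested isotypes were higher and 1 was lower. In that comparison 75% of all 14020 tested genes passed, 36.2% upward and 38.8% downward, so passing the test does not set the isotypes apart from other genes and the sizes carry more of the description. With guides alone 4 were higher and 0 lower, where 67.7% of all genes passed (32.7% upward and 35% downward). With ASOs alone 4 were higher and 1 lower, where 65% passed (31.8% upward and 33.2% downward). How many of all genes have targeted libraries apart from controls in every experiment was not counted. Such separation, here and below, is thus not shown to be particular to these isotypes.

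**Figure D1:**
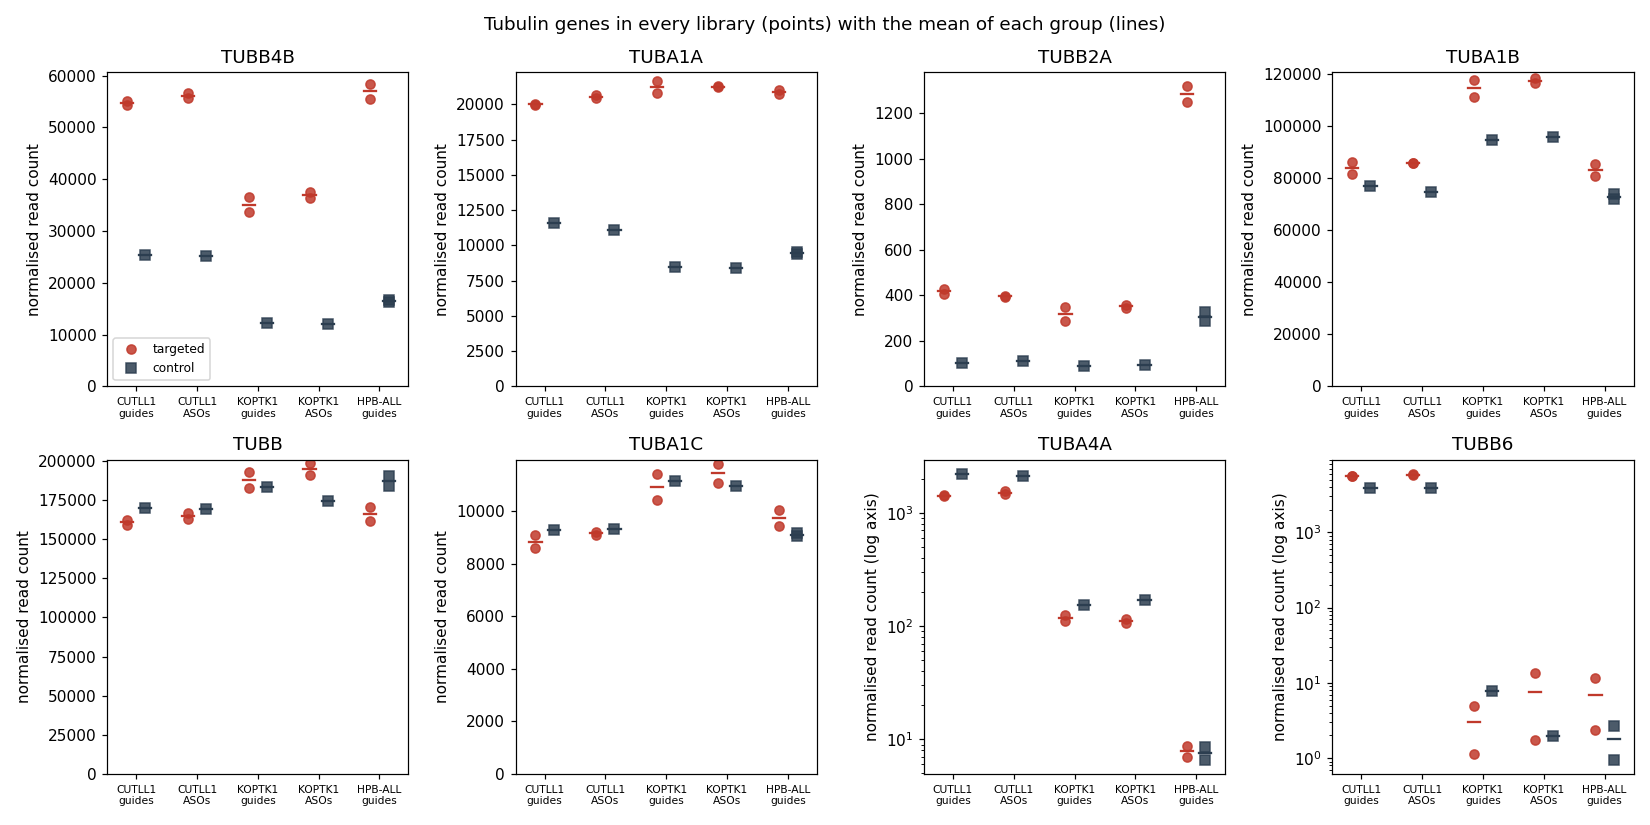
Normalised read counts of the 8 tested tubulin genes in each of the 16 libraries, by experiment. Circles are targeted and squares control libraries, short lines are group means, and TUBA4A and TUBB6 have a log axis. Targeted and control libraries of TUBB4B and TUBA1A do not overlap across the 3 lines, while those of TUBB and TUBA1C lie close together.

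TUBB4B is a beta-tubulin gene, on chromosome 9 in the reference, whose protein is found in spindle, cytoplasmic and ciliary microtubules. In CUTLL1 it read 55160 and 54289 normalised reads with guides, against 25345 in the guide control. With ASOs the same line read 55645 and 56574, against 25100 in the ASO control. The guide and ASO libraries of CUTLL1 thus lay close together, from 54289 to 56574, and far above both controls. In KOPTK1 it read 36480 and 33666 with guides, against 12195 in the guide control, and 37441 and 36312 with ASOs, against 12053 in the ASO control. In HPB-ALL it read 58397 and 55489 with guides, against 16666 and 16373 in the controls. The lowest targeted library in any line, 33666 in KOPTK1, lay above the highest control in any line, 25345 in CUTLL1. Over all libraries TUBB4B rose by 1.47 on the log2 scale (SE 0.076, adjusted p 5.42e-10), a 2.77-fold difference with a 95% interval of 2.47 to 3.10. It was also the largest rise among the 952 tested genes with a mean of 10000 or more, a level chosen after its value was seen. Among all tested genes, 189 had a larger log2 fold change.

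TUBA1A, an alpha-tubulin gene on chromosome 12, is the main alpha isotype of migrating and differentiating neurons. In CUTLL1 it read 20022 and 19953 normalised reads with guides, against 11611 in the guide control, and 20414 and 20674 with ASOs, against 11066 in the ASO control. In KOPTK1 it read 21640 and 20813 with guides, against 8453 in the guide control, and 21198 and 21309 with ASOs, against 8408 in the ASO control. In HPB-ALL it read 21049 and 20735 with guides, against 9532 and 9371 in controls. The 10 targeted libraries of all 3 lines fell between 19953 and 21640, while the 6 controls ranged from 8408 to 11611, so the lines differed more in their controls than in their targeted libraries. TUBA1A rose by 1.10 (SE 0.061, adjusted p 1.04e-09), which is 2.15-fold with an interval of 1.96 to 2.35. Of the 952 abundant genes, 10 had a larger log2 fold change.

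TUBB2A is a beta-tubulin gene on chromosome 6 that is enriched in brain, and it was low in these cells. In HPB-ALL it read 1320 and 1249 normalised reads with guides, against 325.1 and 285.7 in controls. CUTLL1 read 426.4 and 407.4 with guides, against 101.5 in the guide control, and 392.6 and 398.2 with ASOs, against 110.5 in the ASO control. KOPTK1 read 347.3 and 288.8 with guides, against 88.15 in the guide control, and 359.1 and 343.2 with ASOs, against 93.24 in the ASO control. Targeted and control libraries did not overlap within any line. The controls of HPB-ALL, however, overlapped with the targeted libraries of KOPTK1. TUBB2A had the largest fold of the 8 tested isotypes, 1.95 on the log2 scale (SE 0.061, adjusted p 4.3e-12) or 3.85-fold with an interval of 3.52 to 4.22, and 81 of all tested genes had a larger one.

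The identity of these reads has limits that differ by isotype. In GENCODE transcripts of the GRCh38 build, 9.89% of the 50-base windows of TUBB4B also occur in another alpha- or beta-tubulin gene or pseudogene. That share was 41.1% for TUBA1A, mostly with TUBA1B, and 65.5% for TUBB2A, of which TUBB2B, its neighbour on chromosome 6, accounts for 60.3% of windows. It was 62.7% for TUBA1B, 25.1% for TUBA1C, 18.2% for TUBB, 5.25% for TUBA4A and 0.993% for TUBB6. The sources used here do not say how reads matching several genes were counted, so the levels of TUBA1A, TUBA1B and TUBB2A are uncertain to that extent. TUBB2B, the gene most like TUBB2A, held 7 reads over all 16 libraries. Of the 37 rows of tubulin pseudogenes, 1 had a mean of 20 or more, TUBBP1, with 56.94 to 86.66 normalised reads in the 16 libraries. TUBA1A and TUBA1C also overlap on opposite strands in that annotation, and whether counting used the strand is not stated.

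The stretch of 250 bases upstream of the transcription start is shown for the 3 isotypes with the largest rise and for the first of the 2 listed starts of TUBB, which did not pass the test. Sequences are from RefSeq on the GRCh38.p14 build, run 5′ to 3′ on the gene's own strand and end just before the start. Capitals mark 3 motifs on either strand. The CCAAT box was searched as CCAAT and, on the other strand, as ATTGG. The TATA box was searched as TATAAA, with its reverse complement TTTATA. The GC box was searched as GGGCGG, with its reverse complement CCGCCC. TUBB4B lies at chr9:137241037-137241286 on the plus strand, TUBA1A at chr12:49189081-49189330 on the minus strand, TUBB2A at chr6:3157545-3157794 on the minus strand and TUBB at chr6:30720102-30720351 on the plus strand.
TUBB4B: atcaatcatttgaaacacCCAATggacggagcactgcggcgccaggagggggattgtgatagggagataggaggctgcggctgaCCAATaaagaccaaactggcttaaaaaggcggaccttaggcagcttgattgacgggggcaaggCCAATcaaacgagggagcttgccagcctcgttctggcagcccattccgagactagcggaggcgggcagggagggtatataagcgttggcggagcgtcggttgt
TUBA1A: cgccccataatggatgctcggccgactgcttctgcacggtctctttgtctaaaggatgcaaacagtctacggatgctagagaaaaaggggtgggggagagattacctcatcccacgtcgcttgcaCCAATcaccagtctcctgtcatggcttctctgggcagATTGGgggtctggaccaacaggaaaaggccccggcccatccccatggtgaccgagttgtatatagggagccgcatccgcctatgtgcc
TUBB2A: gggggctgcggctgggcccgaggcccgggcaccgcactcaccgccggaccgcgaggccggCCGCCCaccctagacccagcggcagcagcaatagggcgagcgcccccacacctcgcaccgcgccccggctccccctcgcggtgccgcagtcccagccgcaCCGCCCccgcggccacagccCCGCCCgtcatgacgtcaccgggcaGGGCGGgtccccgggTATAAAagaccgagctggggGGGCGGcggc
TUBB: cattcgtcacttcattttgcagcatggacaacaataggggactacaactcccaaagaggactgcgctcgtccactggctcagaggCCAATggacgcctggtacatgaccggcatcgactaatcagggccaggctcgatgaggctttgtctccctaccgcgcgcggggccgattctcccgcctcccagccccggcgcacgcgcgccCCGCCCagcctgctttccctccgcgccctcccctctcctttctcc
All 10 isotypes matched an entry of the RefSeq table. TUBB4B held 3 CCAAT boxes, which begin at positions -232, -166 and -103 relative to the start, and neither GGGCGG nor TATAAA on either strand. TUBA1A held 2 CCAAT boxes, at -125 and -88. TUBB2A held no CCAAT box but 5 GC boxes and a TATA box at -30. The 3 isotypes that rose most thus do not share these exact letters. Near matches were not searched: TUBB4B holds tatataag and TUBA1A tatatagg shortly before the start, and neither was counted. TUBB held 1 CCAAT box and 1 GC box at its first listed start, and 0 CCAAT boxes and 5 GC boxes at its listed start 2. Among 35116 promoters of the same length, 32% held a CCAAT box, 10.7% a TATA box and 42.6% a GC box, on either strand. TUBB2A also held the cAMP response element TGACGTCA at -60, which 1.65% of promoters hold. The CHR letters TTTGAA, known from promoters of cell-cycle genes, occurred once in TUBB4B and in 13.3% of promoters. Neither the E2F letters GGCGGGAA, in 2.72% of promoters, nor the E box CACGTG, in 6.34%, occurred at the first listed start of any of the 10 isotypes. The E box did occur at listed start 2 of TUBB, at -49, and at listed start 3 of TUBA1C, at -52. GC content was 56.8% in TUBB4B, 56.4% in TUBA1A, 79.2% in TUBB2A and 63.6% in TUBB, against a median of 58% over all promoters. Such matches are letters in a window and say nothing of binding in these cells.

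TUBA1B, the leading alpha isotype, was among the most abundant transcripts of these cells, at rank 17 to 28 of all genes in each library. In KOPTK1 it read 117628 and 110978 normalised reads with guides, against 94606 in the guide control, and 118322 and 116301 with ASOs, against 95699 in the ASO control. CUTLL1 read 86015 and 81453 with guides, against 76883 in the guide control, and 85506 and 85782 with ASOs, against 74529 in the ASO control. In HPB-ALL it read 85171 and 80515 with guides, against 73646 and 71931 in controls. Targeted libraries lay above their controls in each of the 5 experiments, although the KOPTK1 controls lay above the targeted libraries of the other two lines. TUBA1B rose by 0.21 (SE 0.027, adjusted p 5.95e-06), or 1.16-fold with an interval of 1.11 to 1.21. With quantile scaling, which forces all libraries to one distribution, the value was 0.03 (adjusted p 0.406), so this rise depends on the scaling. The median of all genes was -0.03 as deposited and 0.07 with quantile scaling.

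TUBB, the leading beta isotype, stood at rank 3 to 9 in each library. CUTLL1 read 162381 and 159201 normalised reads with guides, against 169672 in the guide control, and 162954 and 166274 with ASOs, against 169087 in the ASO control. KOPTK1 read 192585 and 182286 with guides, against 182946 in the guide control, and 198664 and 190787 with ASOs, against 174140 in the ASO control. HPB-ALL read 170661 and 161413 with guides, against 190326 and 183525 in controls. TUBB was below its controls in both CUTLL1 experiments and in HPB-ALL, above its control with ASOs in KOPTK1, and on both sides with guides in KOPTK1. Over all libraries its log2 difference was -0.03 (SE 0.038, adjusted p 0.453), with an interval on the fold of 0.923 to 1.04. Within the single experiments it fell by 0.17 in HPB-ALL (adjusted p 0.00306) and rose by 0.16 with ASOs in KOPTK1 (adjusted p 0.0164). The KOPTK1 call was lost without its ASO replicate 1 (0.13, adjusted p 0.0813). Quantile scaling moved TUBB to -0.24 over all libraries (adjusted p 1.22e-06) and to -0.16 with ASOs in KOPTK1, so the direction of so abundant a gene depends on the scaling.

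TUBA1C, a broadly expressed alpha isotype next to TUBA1A and TUBA1B on chromosome 12, was close to level. It read 8579 to 11795 normalised reads in the 10 targeted libraries, against 9043 to 11147 in the 6 controls. Its log2 difference was 0.01 (SE 0.031, adjusted p 0.704), and the interval on the fold ran from 0.963 to 1.06. TUBB4B, TUBA1A and TUBB2A moved together with TUBA1B across the 16 libraries once the mean of each experiment had been subtracted, with Pearson's r of 0.936 to 0.992 between any pair of the 4, whereas r of TUBA1C with these 4 was 0.184 to 0.332. These values describe libraries that share the same targeted and control arms.

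TUBA4A is an alpha isotype of brain, muscle and platelets whose mRNA codes no terminal tyrosine. CUTLL1 read 1435 and 1406 normalised reads with guides, against 2211 in the guide control, and 1455 and 1559 with ASOs, against 2131 in the ASO control. KOPTK1 read 110.8 and 124.3 with guides, against 155 in the guide control, and 116.5 and 107.2 with ASOs, against 171.5 in the ASO control. HPB-ALL stayed at trace level, at 8.776 and 6.921 with guides, against 6.607 and 8.571 in controls. All targeted libraries of CUTLL1 and KOPTK1 thus lay below their controls, and the groups overlapped in HPB-ALL. Over all 16 libraries TUBA4A fell by 0.38 (SE 0.103, adjusted p 0.00422). With guides alone its value was -0.28 in limma (adjusted p 0.133), and edgeR (-0.48, adjusted p 0.00177) and DESeq2 (-0.48, adjusted p 0.00536) on recovered reads passed. Leaving out 1 library moved the limma value between -0.13, without the CUTLL1 guide control, and -0.39, without HPB-ALL control replicate 1 (adjusted p 0.0341), and it also passed without HPB-ALL guide replicate 1 (-0.38, adjusted p 0.0404). A fit of each line's libraries alone, added after the trace level in HPB-ALL was seen, gave a fall of 0.57 in CUTLL1 (adjusted p 2.02e-09) and of 0.51 in KOPTK1 (adjusted p 0.00195). Quantile scaling ended the call over all libraries (-0.13, adjusted p 0.375).

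TUBB6 is a beta isotype with a divergent sequence. It was a CUTLL1 gene in these data, at 5680 and 5563 normalised reads with guides, against 3836 in the guide control, and at 5752 and 5966 with ASOs, against 3833 in the ASO control. In the other two lines it read 1.151 to 13.4 in targeted libraries, against 0.9523 to 7.75 in controls, at most 15 reads in any library. TUBB6 passed the filter on low values through CUTLL1 alone. Over all libraries its log2 difference was 0.53 with an SE of 0.436 (adjusted p 0.285 in limma). The tools differed here: edgeR on recovered reads gave 0.62 (adjusted p 0.01) and DESeq2 0.73 (adjusted p 0.239). In the CUTLL1 libraries alone, the same added fit gave a rise of 0.58 (SE 0.030, adjusted p 9.1e-12), where 78.8% of all genes passed. TUBB2B held 0 reads in 12 of the 16 libraries and at most 3 in any, and TUBB3, the neuronal beta isotype, held 23 reads in all and at most 5 in any. The second TUBB3 row was at 0 in all 16. Differences in these 2 genes were not detectable at this depth. Of 12 neuronal marker genes, SNAP25 and NEFL were at 0 in every library. STMN2, DCX, NEFM, RBFOX3 and GAP43 reached at most 1.538 normalised reads in any library, and ELAVL3 at most 6.666. The highest values were 2100 for SYT1, 191.6 for ELAVL4, 147.6 for MAP2 and 69.05 for INA, and each of these was 0 in some library. A mean of 20 or more was reached by 4 of the 12 in targeted libraries and by 2 in controls. The neuronal sum ran from 23.48 to 2170 in targeted libraries, against 31.22 to 1587 in controls.

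The isotypes were next compared as parts of the alpha and beta pools. Normalised reads were divided by transcript length in kilobases, so that levels of different genes could be set side by side, and each gene's share of the summed alpha or beta level was taken per library. In CUTLL1 and KOPTK1 the means and SDs of shares and sums pool the guide and ASO libraries of an arm. Those SDs thus span different treatments and are not a spread of replicates of one condition. In HPB-ALL, TUBB4B made up 35.6% ± 0.074 of the listed beta-tubulin level in targeted libraries, against 12.6% ± 0.15 in controls (SD, n = 2 each). In CUTLL1 the share was 34.6% ± 0.056 (SD, n = 4) in targeted libraries, against 19.1% ± 0.070 (SD, n = 2) in controls. In KOPTK1 it was 23.4% ± 0.23 (SD, n = 4) in targeted libraries, against 9.97% ± 0.24 (SD, n = 2) in controls. TUBB made up a smaller share in targeted libraries, with 63.6% in targeted HPB-ALL against 87.2% in its controls, 62.3% in targeted CUTLL1 against 78.5% in its controls, and 76.3% in targeted KOPTK1 against 90.0% in its controls. TUBB2A stayed under 1% of the beta pool in every library, at most 0.824% in targeted HPB-ALL cells. TUBB thus remained the leading beta isotype in all 16 libraries.

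Among the alpha genes, TUBA1A made up 16% ± 0.28 of the level per kilobase in targeted CUTLL1 libraries (SD, n = 4), against 10.5% ± 0.13 in controls (SD, n = 2). In KOPTK1 its share was 12.9% ± 0.22 in targeted libraries (SD, n = 4), against 6.61% ± 0.067 in controls (SD, n = 2). In HPB-ALL it was 16.8% ± 0.41 in targeted libraries, against 9.36% ± 0.026 in controls (SD, n = 2 each). TUBA1B remained the leading alpha isotype, with 78.5% in targeted CUTLL1 against 82.3% in its controls, 82.7% in targeted KOPTK1 against 87.8% in its controls, and 78.2% in targeted HPB-ALL against 84.9% in its controls. The summed levels describe the pools themselves on the deposited scale. The beta sum was 97827 ± 1743 normalised reads per kilobase in targeted CUTLL1 libraries (SD, n = 4), against 80771 ± 257 in controls (SD, n = 2). In KOPTK1 it was 93756 ± 3525 in targeted libraries (SD, n = 4), against 74336 ± 2393 in controls (SD, n = 2), and in HPB-ALL 97780 ± 3734 in targeted libraries, against 80294 ± 1947 in controls (SD, n = 2 each). The alpha sum was 66308 ± 1553 in targeted CUTLL1 libraries against 56554 ± 1241 in controls, 86046 ± 2374 in targeted KOPTK1 libraries against 66646 ± 421 in controls, and 65075 ± 2292 in targeted HPB-ALL libraries against 52709 ± 777 in controls, with the same n. Targeted and control sums did not overlap in any line for either pool as deposited. The sums were not taken with quantile scaling. TUBB and TUBA1B make up most of them, and the differences of both genes depended on the scaling. Whether the pools differ under another scaling is thus not shown. Shares and sums are descriptions with no test, and they rest on 1 reference transcript per gene.

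**Figure D2:**
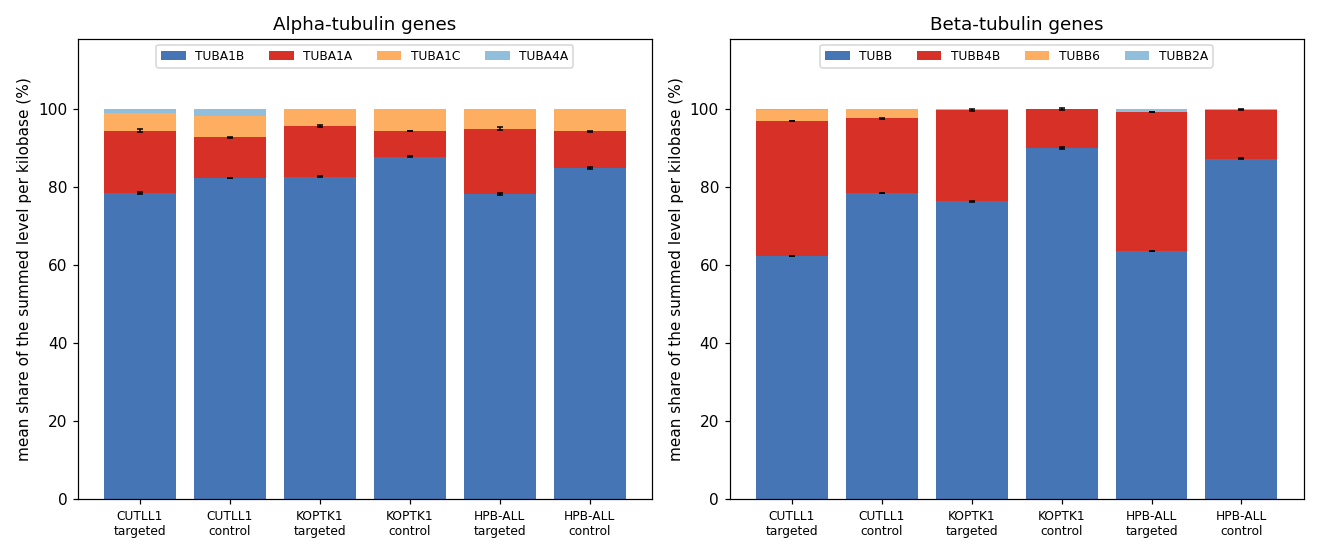
Mean share (%) of each gene in the summed level per kilobase of the listed alpha genes (left) and beta genes (right), by line, with targeted bars left of control bars. Error bars are the SD over libraries of the 2 leading genes (4 targeted and 2 control in CUTLL1 and KOPTK1, with guides and ASOs pooled, and 2 and 2 in HPB-ALL). TUBB4B widens to 34.6% in CUTLL1, 23.4% in KOPTK1 and 35.6% in HPB-ALL, TUBB narrows, and TUBA1A widens to 12.9% to 16.8% of the alpha genes.

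The guide effect was then compared between the lines. It differed for TUBA1A (F 74.72, adjusted p 1.41e-05) and TUBB4B (F 59.36, adjusted p 3.33e-05), 2 of the 8 tested isotypes, where 43.7% of all genes passed. TUBB4B rose by 1.78 in HPB-ALL (SE 0.039), by 1.52 in KOPTK1 (SE 0.048) and by 1.11 in CUTLL1 (SE 0.048), each with an adjusted p of 6.05e-09 or lower. TUBA1A rose by 1.33 in KOPTK1 (SE 0.032), by 1.14 in HPB-ALL (SE 0.026) and by 0.78 in CUTLL1 (SE 0.032), each with an adjusted p of 4.36e-09 or lower. For both genes the smallest rise was in CUTLL1, whose controls held the most of either. TUBB2A rose by 2.07 in HPB-ALL, 2.03 in CUTLL1 and 1.83 in KOPTK1, and a difference between the lines was not shown (F 1.06, adjusted p 0.474). For TUBA1B the value was F 2.32 (adjusted p 0.222), for TUBA1C F 2.70 (adjusted p 0.181) and for TUBB6 F 2.34 (adjusted p 0.219). TUBB (F 4.89, adjusted p 0.0644) and TUBA4A (F 4.68, adjusted p 0.0703) missed the threshold, and which side they fell on depended on the setting. TUBB passed with robust moderation (adjusted p 0.0229), in edgeR (adjusted p 0.0341), without KOPTK1 guide replicate 2 (adjusted p 0.0325) and without HPB-ALL guide replicate 1 (adjusted p 0.049). TUBA4A passed with a pseudocount of 5 (adjusted p 0.0281), with quantile scaling (adjusted p 0.0153), without HPB-ALL control replicate 2 (adjusted p 0.0285) and without HPB-ALL guide replicate 2 (adjusted p 0.0339). Within single experiments, 4 isotypes were higher and 1 lower with guides in CUTLL1, where 62.3% of all genes passed (30.8% upward and 31.5% downward). With guides in KOPTK1 the numbers were 4 and 0, where 64.1% passed (31% upward and 33.1% downward), and in HPB-ALL 4 and 1, where 70.9% passed (34% upward and 36.9% downward). With ASOs the numbers were 4 and 1 in CUTLL1, where 62.3% passed (30.5% upward and 31.8% downward), and 5 and 1 in KOPTK1, where 63.4% passed (30.6% upward and 32.8% downward). In simulated data these single-experiment tests called too many unchanged genes, mainly genes with a mean under 20 in some line. Among the isotypes called in them, that is the case for TUBA4A alone. The simulation changed 190 of 13951 tested genes, far fewer than passed here, so its share of false calls may not carry over. The fall of TUBA4A in CUTLL1 and KOPTK1 therefore rests on the fits of each line alone given above, which were not simulated. The CUTLL1 guide rise of TUBA1B, 0.12, was the most marginal of these calls (adjusted p 0.0491), and it was lost without CUTLL1 guide replicate 1 (0.08, adjusted p 0.23) and, at the same size, without any 1 of both CUTLL1 ASO, both KOPTK1 ASO or both HPB-ALL control libraries (adjusted p 0.0598 to 0.0713). The fall of TUBA4A with ASOs in CUTLL1 (-0.50, adjusted p 0.0296) was lost without ASO replicate 1 (-0.45, adjusted p 0.108) and without ASO replicate 2 (-0.55, adjusted p 0.0565).

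**Figure D3:**
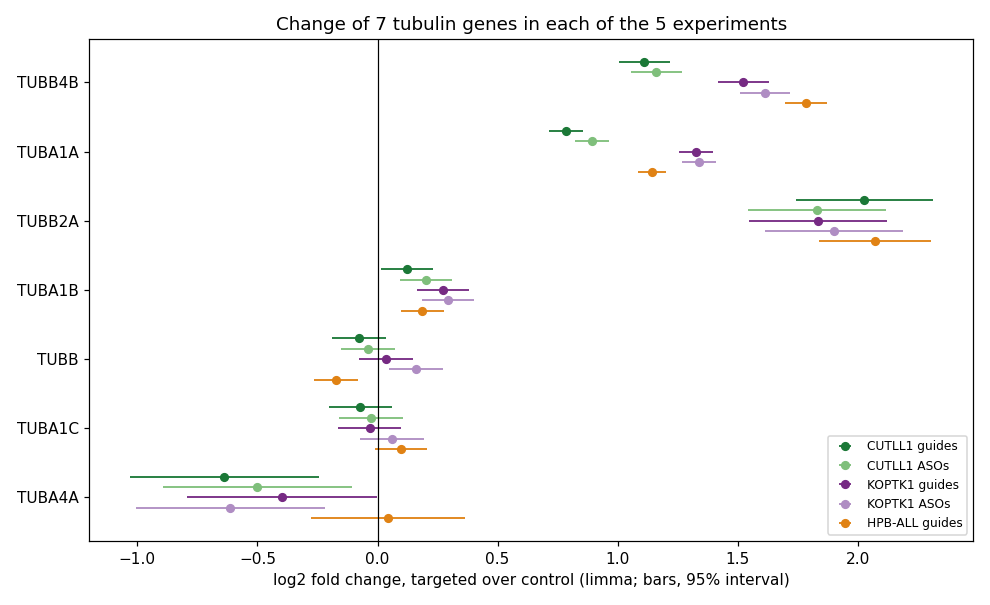
Log2 fold change, targeted over control, of 7 tubulin genes (rows) in each of the 5 experiments (colours), with 95% intervals from limma as bars. TUBB4B, TUBA1A and TUBB2A lie right of 0 in all 5 experiments, with the CUTLL1 values of TUBB4B (1.11 and 1.16) and TUBA1A (0.78 and 0.89) below those of the other lines.

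Guides and ASOs were compared in the 2 lines that had both. TUBB4B rose by 1.11 with guides and 1.16 with ASOs in CUTLL1, and by 1.52 and 1.61 in KOPTK1. TUBA1A rose by 0.78 with guides and 0.89 with ASOs in CUTLL1, and by 1.33 and 1.34 in KOPTK1. The guide effect minus the ASO effect was -0.07 for TUBB4B, with an interval of -0.18 to 0.04, and -0.06 for TUBA1A, with an interval of -0.13 to 0.01. For TUBB2A it was 0.07 (-0.22 to 0.35), for TUBA1B -0.05 (-0.16 to 0.06), for TUBB -0.08 (-0.20 to 0.03) and for TUBA1C -0.07 (-0.20 to 0.06). The difference was 0.04 for TUBA4A (-0.36 to 0.43) and -1.22 for TUBB6 (-3.27 to 0.83). None of the 8 passed, and 0 of all 14020 genes passed in limma (0%), with 1393 at an unadjusted p under 0.05. edgeR passed 0 genes (1426 unadjusted) and DESeq2 passed 1 (617 unadjusted), and no isotype was among any of the unadjusted sets. Mean chi-square per gene between guide and ASO libraries of one line and arm was 2.287 to 14.54 over 8 pairs, a range that includes that between libraries of one group.

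The ASO controls were also set against the guide controls of the same line. The difference for TUBB4B was -0.02, with an interval of -0.10 to 0.07, and that for TUBA1A was -0.04 (-0.10 to 0.02). No isotype passed, and 1 of 14020 genes did (0.00713%), with 475 at an unadjusted p under 0.05. A guide and an ASO differ in delivery and in their control, so the 2 approaches cannot be told apart from these.

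The control libraries show how the lines differed in isotypes. TUBB6 passed the filter through CUTLL1 alone, so its differences from CUTLL1 are described and not counted. For CUTLL1 minus KOPTK1, 3 of the other 7 tested isotypes were higher and 2 lower, where 73.9% of all genes passed (36.5% upward and 37.4% downward). TUBB4B was 2.08-fold higher in CUTLL1 controls (log2 1.06, SE 0.039, adjusted p 5.48e-10), and TUBA1A 1.34-fold (0.43, SE 0.026, adjusted p 3.78e-08). TUBA4A was 13.2-fold higher (3.73, SE 0.146, adjusted p 8.4e-10), and TUBB6 read 3836 and 3833 in CUTLL1 controls against 7.75 and 1.956 in KOPTK1 controls. TUBA1B was 0.33 lower on the log2 scale (adjusted p 1.55e-05) and TUBA1C 0.25 lower (adjusted p 0.000694) in CUTLL1 than in KOPTK1.

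For HPB-ALL minus CUTLL1, among guide controls, 2 of these 7 isotypes were higher and 3 lower, where 73.6% of all genes passed (36.8% in each direction). TUBB2A was 2.98-fold higher in HPB-ALL (1.58, SE 0.130, adjusted p 4.93e-07), and TUBB 1.10-fold higher (0.14, adjusted p 0.0278). The TUBB call was lost without HPB-ALL control replicate 1 (0.11, adjusted p 0.114). TUBB4B (-0.62, adjusted p 2.87e-07) and TUBA1A (-0.30, adjusted p 5.4e-06) were lower. TUBA4A, counted as lower (-8.02), passed the filter only through the lines other than HPB-ALL, so its difference is a description. It read 6.607 and 8.571 in HPB-ALL controls, against 2211 in the CUTLL1 guide control. For HPB-ALL minus KOPTK1, 3 were higher and 3 lower, where 73.6% of all genes passed (35.9% upward and 37.8% downward). TUBB2A (1.78, adjusted p 1.71e-07), TUBB4B (0.44, adjusted p 5.9e-06) and TUBA1A (0.16, adjusted p 0.000775) were higher in HPB-ALL. TUBA1B (-0.38) and TUBA1C (-0.29) were lower in HPB-ALL, each with an adjusted p of 0.000956 or lower. TUBA4A, also counted as lower (-4.19), has the same limit from the filter, and read 155 in the KOPTK1 guide control. In control cells TUBB4B was highest in CUTLL1 (25100 and 25345), then HPB-ALL (16373 and 16666), then KOPTK1 (12053 and 12195). These ranges did not overlap. In CUTLL1 and KOPTK1, however, each pair is a guide and an ASO control, and not replicates of one condition. TUBB in KOPTK1 controls did not pass in limma against either other line (CUTLL1 minus KOPTK1 -0.08, adjusted p 0.122, and HPB-ALL minus KOPTK1 0.03, adjusted p 0.604). In edgeR it passed for CUTLL1 minus KOPTK1 (-0.08, adjusted p 0.0417), and with quantile scaling it was 0.27 higher in CUTLL1 (adjusted p 3.74e-05) and in HPB-ALL (adjusted p 0.000188) than in KOPTK1, so its order among the lines depends on the scaling. Line and culture cannot be told apart in these contrasts.

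Other genes of the tubulin superfamily were mostly silent. Over all libraries 36.2% of all tested genes rose and 38.8% fell as deposited, and 43.2% rose and 33.2% fell with quantile scaling. The counts of each list below stand against these shares. Of 12 further tubulin genes, 5 reached a mean of 20, and 2 rose and 0 fell, while with quantile scaling 4 of the 5 rose. TUBG2, a gamma-tubulin gene, rose by 1.04 (SE 0.056, adjusted p 8.63e-10), or 2.05-fold. TUBG1, the main gamma-tubulin of centrosomes, rose by 0.29 (SE 0.035, adjusted p 3.72e-06). TUBD1 (0.00, adjusted p 0.954), TUBE1 (0.06, adjusted p 0.551) and TUBB4A (-0.14, adjusted p 0.601) did not pass, and with quantile scaling TUBB4A and TUBD1 lay at 0.15 and 0.12. In the gamma-tubulin ring complex, which nucleates microtubules, 2 of 10 genes rose and 6 fell (36.2% and 38.8% over all genes), with a median log2 difference of -0.22 against -0.03 over all tested genes. CDK5RAP2, which anchors and activates the ring, fell by 0.64 (adjusted p 3.51e-10), the small subunit MZT2A fell by 0.50 (adjusted p 7.63e-08), and TUBGCP5, a subunit of the ring, rose by 0.66 (adjusted p 3.98e-10).

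Genes for tubulin folding were lower or mixed. New tubulin passes from prefoldin to the CCT chaperonin and then to cofactors that join alpha to beta. Of the 8 CCT subunit genes, 0 rose and 7 fell, against 36.2% and 38.8% of all tested genes, with a median of -0.12. CCT5 fell by 0.52 (SE 0.020, adjusted p 3.59e-11), CCT3 by 0.34 (adjusted p 1.52e-08) and CCT4 by 0.22 (adjusted p 1.15e-07). CCT6A (-0.12), TCP1 (-0.12), CCT7 (-0.11) and CCT8 (-0.07) fell by less, each with an adjusted p of 0.00984 or lower, and CCT2 was at -0.05 (adjusted p 0.151). Against the same shares, 0 of the 6 prefoldin genes rose and 5 fell, among them PFDN4 by 0.62 (adjusted p 9.25e-08), PFDN6 by 0.48 (adjusted p 3.74e-09) and PFDN1 by 0.32 (adjusted p 1.85e-06). Of the 8 folding cofactors, 4 rose and 4 fell. ARL2, a small GTPase of that step, fell by 0.90 (adjusted p 2.87e-09), TBCD, a cofactor that holds beta-tubulin, fell by 0.55 (adjusted p 1.27e-08), and the cofactor relative TBCCD1 rose by 0.44 (adjusted p 1.15e-08). The rise of TUBB4B, TUBB2A and TUBA1A was thus measured beside lower mRNA of most chaperonin and prefoldin genes.

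**Figure D4:**
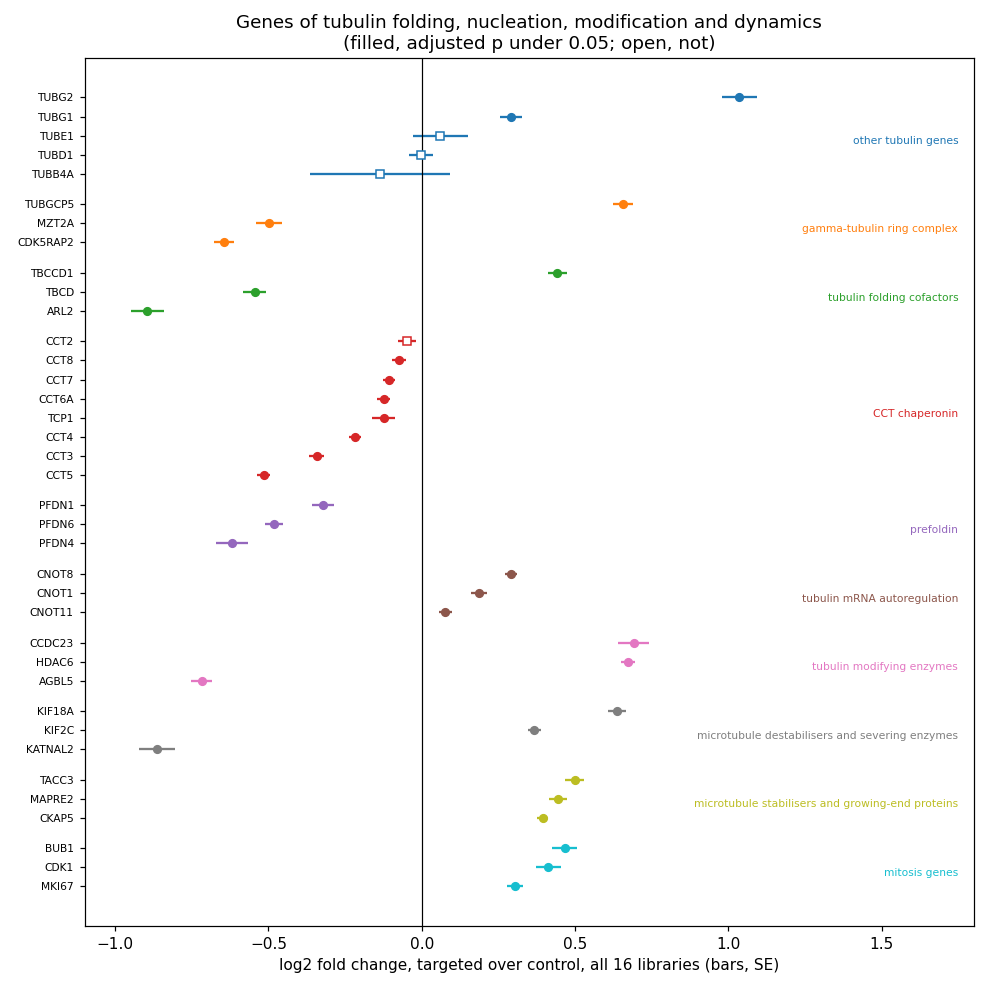
Log2 fold change, targeted over control, of named genes from 10 lists around tubulin, over all 16 libraries, with SE as bars. Filled circles passed an adjusted p of 0.05 and open squares did not. TUBG2 lies farthest right at 1.04, 7 of the 8 CCT subunits lie left of 0 as filled circles, and the genes of microtubule growth and mitosis shown lie right of 0.

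Of 11 genes of tubulin mRNA autoregulation, which include TTC5, SCAPER and the CCR4-NOT subunits, 4 rose and 2 fell, with a median of 0.06. The upward count is near the 36.2% over all genes and is no result about the list, and the downward count is below the 38.8%. CNOT8, a deadenylase subunit, rose by 0.29 (adjusted p 1.09e-08), the scaffold CNOT1 by 0.19 (adjusted p 2.41e-05) and CNOT11 by 0.08 (adjusted p 0.00372). Of 19 genes for enzymes that modify tubulin, 12 rose and 6 fell, against 36.2% and 38.8% of all genes. With quantile scaling 12 rose and 2 fell, against 43.2% and 33.2%. HDAC6, a tubulin deacetylase, rose by 0.67 (adjusted p 7.52e-12), CCDC23, an older symbol of the vasohibin partner SVBP, rose by 0.69 (adjusted p 1.4e-08), and AGBL5, a deglutamylase, fell by 0.72 (adjusted p 1.86e-10).

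In the lists of microtubule dynamics and mitosis more genes rose than fell, where 36.2% of all genes rose and 38.8% fell. Of 17 stabilisers and growing-end proteins, 12 rose and 1 fell under both scalings, with TACC3 at 0.50 (adjusted p 3.21e-09), the end-binding protein gene MAPRE2 at 0.44 (adjusted p 4.61e-09) and the polymerase CKAP5 at 0.39 (adjusted p 1.44e-10). Of 12 destabilisers and severing enzymes, 7 rose and 2 fell, and with quantile scaling 5 rose and 2 fell, with a median of 0.0615 against 0.185 as deposited. The mitotic kinesins KIF18A and KIF2C rose by 0.64 (adjusted p 1.82e-10) and 0.37 (adjusted p 7.84e-10), and the katanin relative KATNAL2 fell by 0.86 (adjusted p 9.18e-09). Of 8 mitosis genes 7 rose and 1 fell, and with quantile scaling 5 rose and 1 fell, against 43.2% and 33.2% of all genes. As deposited, the mitosis genes with the smallest p were BUB1 at 0.47 (adjusted p 1.61e-07), CDK1 at 0.41 (adjusted p 4.03e-07) and the proliferation marker MKI67 at 0.30 (adjusted p 1.41e-07). TUBB4B, TUBA1A and TUBB2A rose by 1.10 to 1.95. The mitosis genes named here, picked by p and not by size, rose by 0.30 to 0.47. Sizes of different genes are not a measure of composition. The part of cell-cycle composition in the isotype changes was not tested. The summed level of the 9 T-lineage markers, given above, also differed between the arms, and its part was not tested either.

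The patterns most like the leading alpha and beta isotypes were looked up over all 16 libraries, with each experiment's mean subtracted, among the 14019 other tested genes. TUBA1B was most like E2F1 (Pearson's r 0.987), CDC20 (0.986) and ANAPC11 (0.986). TUBB, which followed the arms less, was most like TAP1 (0.951), ALDOA (0.947) and AAAS (0.942). These are descriptions over libraries that share their arms, and the values of TUBA1B follow mainly the difference between targeted and control libraries.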

How the data were processed

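The deposited table gives 1 column for each of the 16 libraries, and its unit is a signal in normalised read counts. In it the authors scaled whole reads by 1 factor per library: 100% of entries were whole multiples of that factor, within 1e-06. The submitters' processing notes name STAR 1.4.2, DESeq2 and hg19 but give no roles. Counter, annotation, strand setting and filters are not given there. Depth was 34547469 to 72178929 reads per library.

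The test was limma, with a trend on intensity, applied to log2(value + 1) of genes whose mean reached 20. P-values were adjusted (Benjamini-Hochberg) over all genes tested, and low genes appear with a fold that is too small on this scale. Cell line was a term in the guide and ASO comparisons, and experiment in the joint one. Single experiments, line differences and control contrasts came from 10 group means, and a lone control was assumed to vary like the rest. All 10 isotypes are named, with up to 3 genes per list by joint p and every CCT subunit and further tubulin gene. Members and lists were chosen with earlier results of these data known.

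Alternatives were: pseudocount 5; no filter, or a minimum mean of 100; scaling by median of ratios or by quantiles; robust moderation; a replicate block; a single replicate number; each library left out; and DESeq2 or edgeR (quasi-likelihood) on recovered reads. These last used 15 libraries, because the factor of CUTLL1 ASO replicate 1 lies too near 1 to be checked. Fits of each line alone were added after seeing the data. On simulated counts the joint comparison called 171 of 190 changed genes and 1 unchanged gene, among 13951 tested. Far fewer genes were changed there than passed in the real data, and the fits of each line alone were not simulated. The 5 single-experiment tests called 124 to 143 changed and 17 to 48 unchanged genes, so their false calls exceed the nominal rate in that setting. Of those unchanged genes, 15 to 45 had a mean under 20 in some line and 1 to 6 did not, beside 119 to 134 changed genes over that mean in every line. Tools were limma 3.58.1, DESeq2 1.42.0 and edgeR 4.0.16 in R 4.3.3.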

Additional observations from a re-analysis of the deposited data

Results flagged for a closer look

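The guide effect differed between the 3 lines for TUBA1A (F 74.72, adjusted p 1.41e-05 in limma) and for TUBB4B (F 59.36, adjusted p 3.33e-05), by a test of the difference itself, in which 43.7% of all genes passed. In every targeted library of every line both genes lay above the controls of that line. TUBA1A was 21640 and 20813 in targeted KOPTK1 against 8453 in its guide control, and 20022 and 19953 in targeted CUTLL1 against 11611 in its guide control. TUBB4B was 58397 and 55489 in targeted HPB-ALL against 16666 and 16373 in its controls, and 55160 and 54289 in targeted CUTLL1 against 25345 in its guide control. The guide controls of CUTLL1 and KOPTK1 are single libraries, so the test takes their spread from the other groups.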

How the results depend on the processing

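TUBB4B, TUBB2A and TUBA1A kept their direction and stayed past the threshold under every alternative run, in the guide, ASO and joint comparisons and in all 5 experiments. With quantile scaling TUBA1B reversed to -0.019 in the ASO comparison, -0.034 with guides in CUTLL1 and -0.041 with ASOs in KOPTK1, and in the ASO minus guide controls to 0.020. TUBA4A reversed to 0.0024 in the guide comparison, and TUBA1C to -0.020 in the ASO and -0.0058 in the joint comparison. TUBB reversed to -0.18 in the ASO comparison, -0.18 with guides and -0.16 with ASOs in KOPTK1, and 0.27 in control CUTLL1 minus KOPTK1, where TUBB2A reversed to -0.030. Quantile scaling gave 1 isotype lower in the guide comparison, 2 in the ASO comparison, 2 with guides and 2 with ASOs in CUTLL1 and 1 with guides in KOPTK1. It also gave 3 higher with ASOs in KOPTK1, 4 that differed between the lines, 1 higher in control HPB-ALL minus CUTLL1 and 0 genes for the ASO minus guide controls. The cause was not tested. A pseudocount of 5 gave 1 isotype lower with guides in KOPTK1, 1 gene for guide minus ASO and 2 genes for the controls. Without the filter 0 isotypes were lower with ASOs in CUTLL1, 1 was higher in control HPB-ALL minus CUTLL1, and 1501 genes passed for guide minus ASO and 1459 for the controls, over more genes tested. edgeR gave 1 isotype lower in the guide comparison, 1 with guides in KOPTK1 and 2 genes for the controls. It also called TUBB6 higher in the joint (0.62, adjusted p 0.01) and ASO comparisons (0.68, adjusted p 0.0424) and in CUTLL1 with guides (0.56, adjusted p 1.99e-05) and ASOs (0.65, adjusted p 2.06e-05), and TUBA1C higher in HPB-ALL (0.12, adjusted p 0.0282). DESeq2 gave 1 lower in the guide comparison, 1 gene for guide minus ASO and 2 for the controls, and it has no F test of the lines. Replicate number 1 alone gave 0 lower in the joint comparison, while number 2 alone reversed TUBA1C to -0.044 (guide), -0.0012 (ASO) and -0.028 (joint). CUTLL1 libraries alone gave 2 isotypes lower and reversed TUBA1C to -0.049, and 2 were lower with guides in CUTLL1. KOPTK1 libraries alone reversed TUBB to 0.10. Without division by length the share of TUBA1A differed by 6.829 percentage points and that of TUBB4B by 12.04, against 6.195 and 16.2 with it.

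Leaving out 1 library gave 0 to 1 isotypes lower in the guide comparison, with guides in KOPTK1 and with ASOs in CUTLL1, and 1 to 2 higher in control HPB-ALL minus CUTLL1. It gave 0 to 4 genes for guide minus ASO, 0 to 11 for the ASO minus guide controls, and 16.2 to 16.9 percentage points for TUBB4B. Values near 0 changed sign: TUBA1C ran from -0.0184 to 0.0447 (guide), -0.027 to 0.060 (ASO), -0.0043 to 0.032 (joint) and -0.10 to 0.033 (guides in KOPTK1). TUBB ran from -0.039 to 0.16 (ASO) and -0.0052 to 0.074 (guides in KOPTK1), and TUBA4A from -0.12 to 0.21 (HPB-ALL). TUBB6 ran from -0.13 to 0.99 (guide) and -0.10 to 2.28 (ASOs in KOPTK1). For guide minus ASO, TUBB2A ran from -0.0011 to 0.13 and TUBA4A from -0.0021 to 0.080.

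HPB-ALL is the one line with the same replicate numbers in both arms, and its numbers did not pair the libraries (r -0.006 across genes). With the replicate block TUBA1C reversed to 0.0039 with ASOs in CUTLL1 and to 0.0023 in control HPB-ALL minus CUTLL1, and 2 genes passed for the ASO minus guide controls. The block also put TUBB past the threshold in the test between lines (F 9.50, adjusted p 0.0146) and TUBA1C in HPB-ALL (0.10, adjusted p 0.04). One number alone was not run for the group means, and leaving out a lone control removes its own experiment. Low counts limit TUBB2B, TUBB3, and TUBB6 and TUBA4A outside CUTLL1.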

Other observations

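TUBB3 was read in 8 of 10 targeted and 2 of 6 control libraries, with at most 5 reads in any. TUBB6 reached 11.53 normalised reads in HPB-ALL guide replicate 2, against 2.393 in replicate 1.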
